A study of Mus musculus with 11 samples.

Results

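The genes described here carry out MHC class I antigen presentation. They are the classical heavy chains H2-K1 and H2-D1, the light chain B2m, the peptide transporter subunits Tap1 and Tap2, the loading factor Tapbp, the 3 immunoproteasome subunits Psmb8, Psmb9 and Psmb10 and the transactivator Nlrc5. They were chosen by name from the deposited RNA-seq table, which held all 10 among its 12932 genes, and all 10 reached the floor set for testing, 3 libraries or more at 1 CPM (reads scaled to the library total), which left 12889 genes to test. The libraries came from sorted alveolar macrophages (AMs) of 9-week-old C57BL/6J mice, male and female, at 40000 cells each. Mature AMs (mAMs, CD11b-/SiglecF+) of Rxrab fl/fl littermates, in which both floxed genes are intact, gave 4 libraries and are called control mAMs. In Cd11cCre+ Rxrab fl/fl mice, Cre recombinase under the Cd11c promoter removes RXRα and RXRβ from CD11c-expressing cells, AMs among them. These mice gave 4 mAM libraries, called RXR-deficient mAMs (RXRαβ-deficient in the plots), and 3 libraries of immature AMs (ImmAMs, CD11b+/SiglecF+), called RXR-deficient ImmAMs. No ImmAM library of control mice was used here, so in ImmAMs against control mAMs the effect of genotype and that of maturation stage cannot be told apart. ImmAMs against RXR-deficient mAMs compares the stages within 1 genotype.

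MHC class I molecules show peptides from inside the cell to CD8 T cells. The proteasome cuts proteins into peptides, with Psmb8, Psmb9 and Psmb10 replacing the constitutive catalytic subunits Psmb5, Psmb6 and Psmb7 in the immunoproteasome, the TAP transporter moves the peptides into the endoplasmic reticulum, and tapasin (Tapbp) holds the heavy chain and B2m beside TAP until a peptide is bound. Most of these genes respond to interferon, and NLRC5, which has no DNA-binding domain of its own, activates class I promoters through factors bound at their X and Y boxes. RXRβ has an old link to this pathway, because it was cloned as H-2RIIBP, a protein that binds the region II element of class I promoters, and the Rxrb gene itself lies inside the mouse MHC.

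The promoter stretch of H2-K1 is shown because it holds the region II element next to the other class I elements, and that of B2m because it holds the same elements without it. Both come from the RefSeq promoter windows on GRCm38.p6, which run from 250 bases before to 50 bases after a start and were found for 8 of the 10 genes. Those of Tap2 and Nlrc5 were not among them. Capitals mark AGGTCA (a nuclear receptor half-site), GGGANNNNCC (a form of the NF-κB site), AANNGAAA (the core of an interferon-response element), TGACG (the X2 box) and ATTGG (the Y box, an inverted CCAAT), each searched on both strands. The H2-K1 stretch is chr17:34000354-34000490 on the minus strand, positions -143 to -7 from the start. The B2m stretch is chr2:122147545-122147643 on the plus strand, positions -142 to -44 from the start. Of H2-D1, only the bases from the X2 to the Y box are shown, chr17:35262993-35263022 on the plus strand, since an annotated transcript of that gene starts further upstream.
H2-K1: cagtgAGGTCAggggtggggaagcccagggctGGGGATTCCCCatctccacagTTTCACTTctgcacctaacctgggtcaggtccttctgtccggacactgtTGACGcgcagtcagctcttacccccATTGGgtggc
B2m: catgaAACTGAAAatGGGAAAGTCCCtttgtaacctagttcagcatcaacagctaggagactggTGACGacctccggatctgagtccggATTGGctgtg
H2-D1: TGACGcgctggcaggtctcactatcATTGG

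The H2-K1 stretch and its counterpart in H2-D1 shared 125 of 137 aligned bases (91.2%), and between the X2 and Y boxes, ends included, they shared 23 of 30. AGGTCA stood in the windows of H2-K1 and H2-D1 and, on the other strand, in that of Psmb10, against 18.1% of the 27025 genes with a window. TGACG followed by 20 bases and ATTGG was found in H2-K1, H2-D1 and B2m and in 27 genes in all (0.0999%), a spacing chosen after these sequences were seen. The single motifs were common, since ATTGG was found in 41.1% of genes, AANNGAAA in 26.7%, TGACG in 23% and GGGANNNNCC in 22.9%. A match is a run of letters and was not tested for binding.

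The deleted genes themselves check the labels only in part, because the table gives 1 value per gene, exons that remain included. Which exons the reads came from was not examined. From relative mRNA expression, the study reports that both genes were efficiently deleted in mAMs and ImmAMs. Rxra did not differ here between RXR-deficient and control mAMs (log2 fold change 0.0013, adjusted p = 0.993 in limma). Rxra was at 310.2, 352, 336 and 379.5 CPM in the control mAMs, at 347, 334, 351 and 419 CPM in the RXR-deficient mAMs and at 286, 305 and 283 CPM in the ImmAMs. Rxrb was at 54.0, 61.5, 51.4 and 72.1 CPM in control mAMs, at 46.3, 52.8, 39.3 and 55.3 CPM in RXR-deficient mAMs and at 33.4, 35.2 and 31.9 CPM in ImmAMs, so only the ImmAMs lay below every control library. The libraries held 16659960 to 37873532 reads. The summed CPM of 14 alveolar macrophage markers overlapped between the groups (22193 to 28265 in control mAMs, 26614 to 32379 in RXR-deficient mAMs, 24849 to 26673 in ImmAMs), and all markers on the lists for T cells, NK cells and fibroblasts were outside the table. Such a sum follows its most abundant genes and does not show that each marker was kept. Siglecf, 1 of the 14 and used in the gate, fell to 19.3 to 19.7 CPM in ImmAMs from 244 to 264 CPM in control mAMs.

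RXR-deficient mAM replicate 4 was not among the libraries used in the published comparisons, with no reason stated, and it stood apart for these genes. It lay above the other 3 RXR-deficient mAM libraries for 9 of the 10 genes, all but B2m, against 31% of the genes tested, and it lay inside the range of the control mAMs for 5 genes, above it for 4 and below it only for Tap2. Groups in the tests below hold replicates 1 to 3 of the RXR-deficient mAMs, and counts with replicate 4 included are given beside those of RXR-deficient against control mAMs. Values per library are listed by replicate number, 1 to 4 for control mAMs, 1 to 3 for RXR-deficient mAMs and 2 to 4 for ImmAMs, and a gene is called changed at a Benjamini-Hochberg adjusted p under 0.05 in limma. The 3 comparisons share their groups and are not independent of each other.

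The comparison of RXR-deficient with control mAMs asks what loss of RXR does to these genes in mature cells. In it, 5 of the 10 genes were called lower and none higher. H2-K1, H2-D1, Tap2, Psmb8 and Psmb10 fell, from 1.23-fold lower for Psmb8 to 1.48-fold lower for Tap2. The other 5 were not called, with log2 fold changes of -0.30 for Tap1, -0.27 for Psmb9, -0.21 for Tapbp, -0.17 for Nlrc5 and 0.10 for B2m. The median log2 fold change of the 10 genes was -0.30, and that of all genes tested was -0.002. Of all genes tested, 4.84% were called in this comparison, 2.25% higher and 2.59% lower, and 8 of the 10 genes had an unadjusted p under 0.05, as did 23.6% of all genes tested. With RXR-deficient mAM replicate 4 included, none of the 10 was called by limma (4 at an unadjusted p under 0.05), with H2-K1 and Tap2 closest at adjusted p of 0.0899 and 0.0890. The count fell to 2 without RXR-deficient mAM replicate 1 or 3 or control mAM replicate 2, 3 or 4, and to 3 without any 1 of the ImmAM libraries, which enter only through the shared variance, and H2-K1 and Tap2 were called in each of these fits.

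When RXR-deficient ImmAMs were compared with control mAMs, 6 genes were called lower and 1 higher. H2-K1, H2-D1, Tap2, Psmb8, Psmb9 and Psmb10 fell, from 1.25-fold lower for Psmb8 to 1.42-fold lower for H2-K1, while Nlrc5 rose by 77.3%. Tap1, Tapbp and B2m were not called, with log2 fold changes of -0.05, 0.05 and 0.02. The median of the 10 was -0.33, against -0.003 for all genes tested. The background was high in this comparison, with 48.1% of all genes tested called, 22.8% higher and 25.3% lower, so that 7 of 10 stood less far above it than 5 of 10 did in mAMs. With RXR-deficient mAM replicate 4 in the fit, Psmb10 was not called (adjusted p = 0.0688) and the other 6 were.

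Between the stages of 1 genotype, RXR-deficient ImmAMs against RXR-deficient mAMs, only Nlrc5 and Tapbp were called, both higher in ImmAMs. Nlrc5 rose by 100.1% and Tapbp by 19.8%. The other 8 genes had log2 fold changes from -0.23 (Psmb9) to 0.25 (Tap1), and the median of the 10 was 0.04, against -0.005 for all genes tested. Of all genes tested, 37.9% were called, 17.7% higher and 20.2% lower, so the count of 2 was below the share over all genes. With replicate 4 included, Tapbp was not called (adjusted p = 0.0769) and Psmb9 was, lower in ImmAMs (log2 fold change -0.36, adjusted p = 0.0446).

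**Figure D1:**
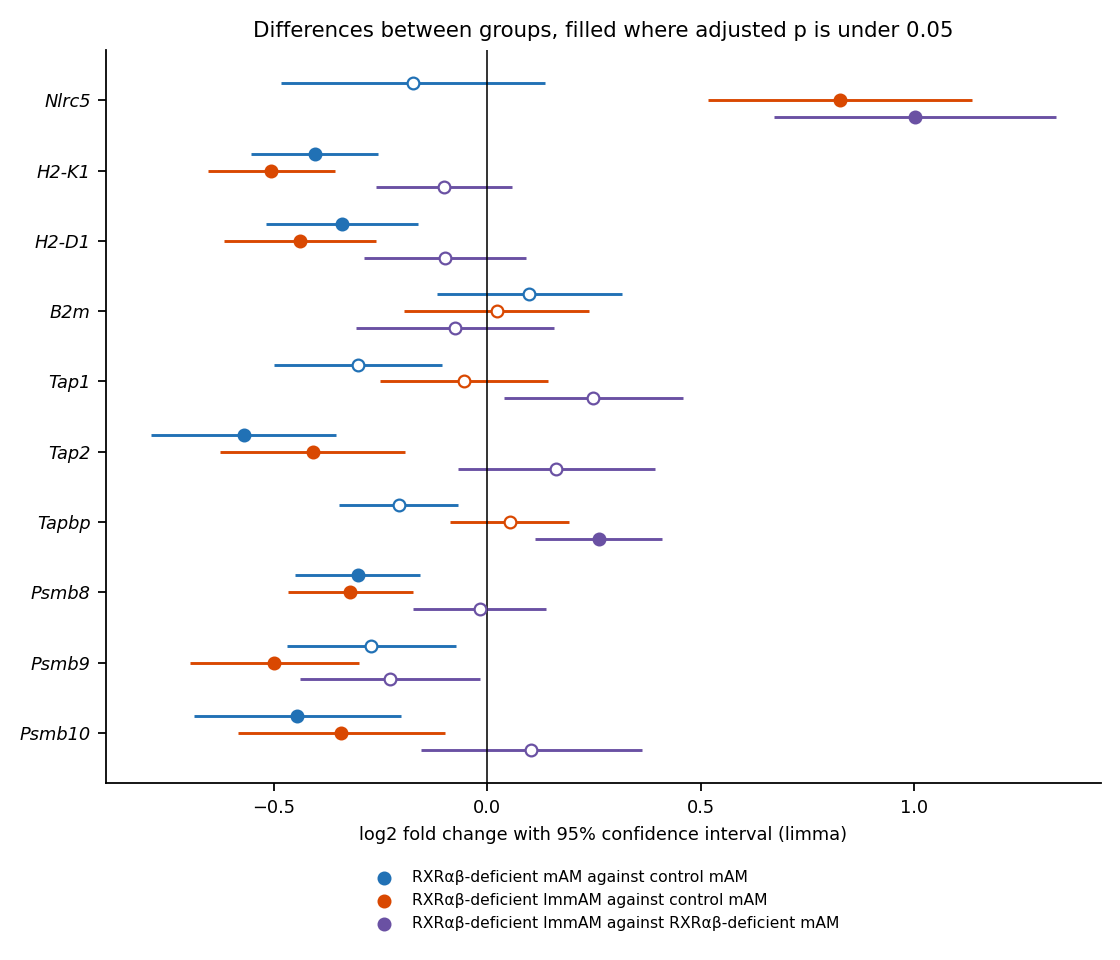
Log2 fold changes (x axis) of the 10 genes (y axis) in the 3 comparisons, with 95% confidence intervals from limma. Filled points have an adjusted p under 0.05. H2-K1, H2-D1, Tap2, Psmb8 and Psmb10 lie left of 0 in both comparisons with control mAMs, and Nlrc5 lies right of 0 only in those with ImmAMs.

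The ImmAM libraries also differed in genes that serve as markers of other cells. Summed CPM of the monocyte markers in the table (6 of 10) ran from 29.0 to 37.0 in control mAMs, from 27.4 to 52.8 in RXR-deficient mAMs and from 379 to 390.2 in ImmAMs, with Itgam, which the gate uses, at 168 to 174 CPM in the last. Interstitial macrophage markers (7 of 10) ran from 1.36 to 2.43, from 2.78 to 5.90 and from 193 to 217 CPM. Neutrophil markers (7 of 9) ran from 55.8 to 63.5, from 113 to 341 and from 904 to 977 CPM, and RXR-deficient mAM replicate 4 had 157 CPM. Dendritic cell markers (3 of 10) ran from 5.72 to 7.46, from 7.16 to 9.95 and from 22.2 to 25.2 CPM. Vwf, the 1 endothelial marker in the table of 8 listed, ran from 118 to 145, from 131 to 154 and from 300 to 332 CPM. The sums of the eosinophil, B cell, alveolar type 2 and erythroid lists overlapped between ImmAMs and mAMs. The monocyte, interstitial macrophage, neutrophil, dendritic cell and endothelial values were all highest in ImmAMs. The neutrophil sums of the RXR-deficient mAMs were also above every control library. The gene behind these mAM sums, and behind most of the neutrophil sum of the ImmAMs, was Mmp8. It encodes a collagenase, and the study counts it among the AM-core genes, so it is no marker of neutrophils alone here. Mmp8 was at 21.5 to 31.2 CPM in control mAMs, 72.3 to 303 CPM in RXR-deficient mAMs and 851 to 914 CPM in ImmAMs. The other 6 neutrophil markers overlapped between the mAM groups, with S100a8 at 2.77 to 6.27 CPM in control mAMs, 3.74 to 7.27 CPM in RXR-deficient mAMs and 10.7 to 16.6 CPM in ImmAMs. In bulk RNA, a change in the mix of cells and a change in RNA per cell cannot be told apart, and the part of these genes' sources in the values below was not tested.

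Nlrc5 (ENSMUSG00000074151, chromosome 8, 94434356 to 94527272 on the plus strand of GRCm38) encodes the class I transactivator. It was at 10.5, 9.99, 11.4 and 10.6 CPM in control mAMs. It was at 8.05, 10.6 and 9.67 CPM in RXR-deficient mAMs, and replicate 4 had 11.7 CPM. The ImmAM libraries had 15.6, 21.4 and 19.8 CPM. Every ImmAM library lay above every mAM library of either genotype, while the 2 kinds of mAM overlapped. The mean of 18.96 ± 2.98 CPM (SD, n = 3) in ImmAMs stood against 10.6 ± 0.580 (SD, n = 4) in control mAMs, a log2 fold change of 0.83 (SE 0.142, adjusted p = 3.71e-04). Against RXR-deficient mAMs its 95% confidence interval was 0.67 to 1.33 (SE 0.152, adjusted p = 1.94e-04). Between the genotypes in mAMs it was -0.17, with a 95% confidence interval from -0.48 to 0.13. Nlrc5 was called in both comparisons with ImmAMs under every alternative and with each library left out.

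H2-K1 (ENSMUSG00000061232, chromosome 17, 33996017 to 34000347, minus strand) is 1 of the 2 classical heavy chains in this strain. It was at 661, 673, 622 and 667 CPM in control mAMs. It was at 459.8, 544 and 486 CPM in RXR-deficient mAMs and at 637 CPM in replicate 4. The ImmAMs had 444, 486 and 456 CPM. Replicates 1 to 3 of the RXR-deficient mAMs and all ImmAMs lay below the lowest control library, and replicate 4 lay inside the control range. H2-K1 fell by 0.40 on the log2 scale in RXR-deficient mAMs (SE 0.0687, adjusted p = 0.00848) and by 0.50 in ImmAMs (adjusted p = 5.18e-05). The latter 2 groups overlapped, and their difference was -0.10 (95% confidence interval -0.26 to 0.06).

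H2-D1 (ENSMUSG00000073411, chromosome 17, 35262730 to 35267499, plus strand), the other classical heavy chain, had the same order of groups at a higher level. It was at 1417, 1690.0, 1442 and 1569 CPM in control mAMs. It was at 1124, 1312 and 1186 CPM in RXR-deficient mAMs and at 1573 CPM in replicate 4. The ImmAM values were 1063, 1206 and 1113 CPM. Again replicates 1 to 3 and the ImmAMs were below every control library and replicate 4 was among them. The log2 fold change against control mAMs was -0.34 in RXR-deficient mAMs (SE 0.0822, adjusted p = 0.0381) and -0.44 in ImmAMs (SE 0.0822, adjusted p = 7.08e-04). In RXR-deficient mAMs the call was lost in 8 of the 10 fits that left out 1 library, with adjusted p up to 0.134. Of the 60-base windows of its transcripts, the read length used, 8.14% were also found in another gene, H2-Q1, H2-Q7 and Gm7030 most often, against 5.89% for H2-K1, so reads there could be split between class I genes.

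B2m (ENSMUSG00000060802, chromosome 2, 122147686 to 122153083, plus strand), the light chain that every class I heavy chain needs, did not follow the heavy chains. It ranged from 835 to 1097 CPM in control mAMs, from 998 to 1142 CPM in RXR-deficient mAMs with replicate 4 at 1072 CPM, and from 905 to 1116 CPM in ImmAMs. The 3 groups overlapped. Its log2 fold change was 0.10 in RXR-deficient mAMs (95% confidence interval -0.12 to 0.32, adjusted p = 0.583) and 0.02 in ImmAMs (-0.19 to 0.24, adjusted p = 0.872). The lowest B2m value of all was that of control mAM replicate 4, and without it the difference between ImmAMs and control mAMs was -0.06.

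**Figure D2:**
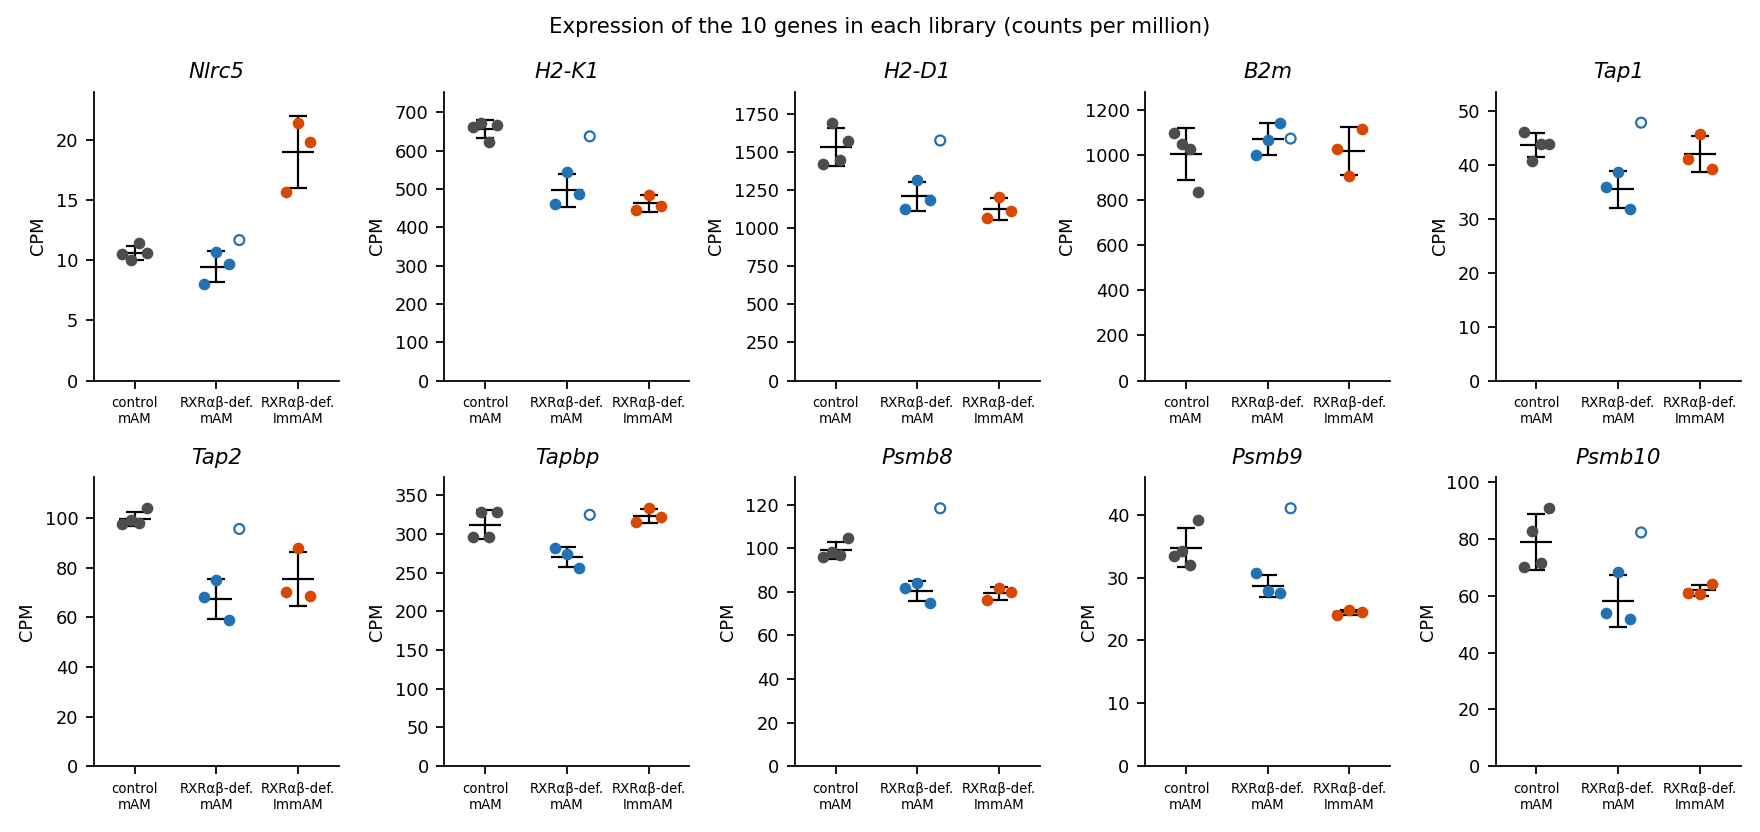
Level in CPM (y axis, from 0) of each of the 10 genes in every library, by group (x axis). Filled points are the libraries in the tests with their mean and SD, and the open circle is RXR-deficient mAM replicate 4. For H2-K1, H2-D1, Psmb8 and Psmb10 the open circle sits among or above the control mAMs, and for Nlrc5 the 3 ImmAM points sit above all others.

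The transporter genes Tap1 and Tap2 lie close together in the class II region. Tap2 (ENSMUSG00000024339, chromosome 17, 34203527 to 34216321, plus strand) was at 97.5, 99.5, 98.1 and 104 CPM in control mAMs. It was at 68.3, 75.0 and 59.1 CPM in RXR-deficient mAMs and at 95.7 CPM in replicate 4. The ImmAM libraries were at 70.3, 88.2 and 68.5 CPM. It was the 1 gene of the 10 for which all 4 RXR-deficient mAM libraries lay below every control library, replicate 4 by a small margin. Its log2 fold change was -0.57 in RXR-deficient mAMs (SE 0.0997, adjusted p = 0.00974) and -0.41 in ImmAMs (SE 0.0997, adjusted p = 0.00445). An antisense gene, Gm15821, overlaps it.

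Tap1 (ENSMUSG00000037321, chromosome 17, 34187553 to 34197225, plus strand) ranged from 40.7 to 46.1 CPM in control mAMs, from 31.8 to 38.6 CPM in replicates 1 to 3 of the RXR-deficient mAMs and from 39.3 to 45.8 CPM in ImmAMs. The RXR-deficient mAMs were lowest without overlap, but replicate 4 was the highest library of all at 47.8 CPM. None of the 3 comparisons called it, with log2 fold changes of -0.30 (adjusted p = 0.0720) in RXR-deficient mAMs, -0.05 in ImmAMs and 0.25 (adjusted p = 0.0599) between the last 2. Tap1 and Psmb9 lie head to head on opposite strands and the annotated genes overlap.

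Tapbp (ENSMUSG00000024308, chromosome 17, 33915899 to 33929292, plus strand), which encodes tapasin, was at 297, 328, 296 and 328 CPM in control mAMs. It was at 282, 274 and 255 CPM in RXR-deficient mAMs and at 325 CPM in replicate 4. In ImmAMs it was at 315, 333 and 322 CPM. ImmAMs lay inside or just above the control range, and replicates 1 to 3 of the RXR-deficient mAMs lay below both other groups. The log2 fold change between the stages was 0.26 (SE 0.0688, adjusted p = 0.00923). Against control mAMs it was -0.21 in RXR-deficient mAMs (adjusted p = 0.0791) and 0.05 in ImmAMs (95% confidence interval -0.09 to 0.19).

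Psmb8 (ENSMUSG00000024338, chromosome 17, 34197721 to 34201454, plus strand) encodes the immunoproteasome subunit that replaces Psmb5. It was at 95.9, 98.3, 97.0 and 105 CPM in control mAMs. It was at 81.5, 84.2 and 75.0 CPM in RXR-deficient mAMs, while replicate 4 had 118 CPM, the highest of all. The ImmAMs were at 76.1, 81.8 and 79.95 CPM. The ImmAMs and replicates 1 to 3 of the RXR-deficient mAMs overlapped each other and were below every control library. The log2 fold change against control mAMs was -0.30 in RXR-deficient mAMs (SE 0.0673, adjusted p = 0.0278) and -0.32 in ImmAMs (SE 0.0673, adjusted p = 0.00164). In RXR-deficient mAMs the call was lost in 5 of the 10 fits that left out 1 library.

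Psmb9 (ENSMUSG00000096727, chromosome 17, 34181987 to 34187764, minus strand), which replaces Psmb6, was at 33.5, 34.3, 32.0 and 39.2 CPM in control mAMs. It was at 30.7, 27.9 and 27.5 CPM in RXR-deficient mAMs and at 41.0 CPM in replicate 4. In ImmAMs it was at 24.1, 24.9 and 24.6 CPM. The ImmAMs were the lowest group without overlap and also the tightest. The log2 fold change was -0.50 in ImmAMs against control mAMs (SE 0.0911, adjusted p = 5.94e-04) and -0.23 against RXR-deficient mAMs (adjusted p = 0.0851). In RXR-deficient mAMs against control mAMs it was -0.27 (adjusted p = 0.0985).

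Psmb10 (ENSMUSG00000031897, chromosome 8, 105935735 to 105938444, minus strand), which replaces Psmb7 and lies outside the MHC, was at 70.0, 82.9, 71.6 and 90.8 CPM in control mAMs. It was at 54.0, 68.5 and 51.7 CPM in RXR-deficient mAMs and at 82.3 CPM in replicate 4. In ImmAMs it was at 60.8, 60.7 and 64.1 CPM. The highest RXR-deficient mAM library of the 3, at 68.5 CPM, was just below the lowest control library. The log2 fold change was -0.44 in RXR-deficient mAMs (SE 0.112, adjusted p = 0.0428) and -0.34 in ImmAMs (SE 0.112, adjusted p = 0.0230). In RXR-deficient mAMs the call was lost in 8 of the 10 fits that left out 1 library, and in ImmAMs in 4.

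Per kilobase of transcript, the levels in control mAMs spanned a wide range. B2m was highest at 1165 ± 134 CPM per kb (SD, n = 4), at percentile 99.8 of the 12863 genes ranked. H2-D1 followed at 728 ± 59.9 and H2-K1 at 405 ± 14.3 CPM per kb, at percentiles 99.7 and 99. Tapbp was at 108 ± 6.36 CPM per kb, and Psmb8 (60.8 ± 2.41) and Psmb10 (60.1 ± 7.48) did not differ beyond their spread. Tap2 (29.0 ± 0.861) and Psmb9 (25.7 ± 2.30) were next, and Tap1 was at 14.8 ± 0.753 CPM per kb. Nlrc5 was lowest by far, at 1.40 ± 0.0766 CPM per kb, percentile 18.7.

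Of the constitutive catalytic subunits none passed the limma test in RXR-deficient mAMs (2 of 3 at an unadjusted p under 0.05), with log2 fold changes of -0.25 for Psmb5, -0.20 for Psmb6 and -0.13 for Psmb7. Of all genes tested, 4.84% were called there and 23.6% had an unadjusted p under 0.05. In the comparison of ImmAMs with control mAMs, Psmb5 fell by 0.58 (adjusted p = 2.88e-04) and Psmb7 by 0.52 (adjusted p = 5.85e-05), while Psmb6 was at -0.12. Of the ratios of each immunoproteasome subunit to the one it replaces, per kb, only Psmb9 to Psmb6 lay wholly outside the control range in ImmAMs. Psmb9 to Psmb6 was 0.270 ± 0.00802 in control mAMs (SD, n = 4), 0.258 ± 0.0213 in RXR-deficient mAMs (SD, n = 3) and 0.208 ± 0.0106 in ImmAMs (SD, n = 3), with the ImmAMs below all mAMs. Psmb8 to Psmb5 was 0.619 ± 0.0700, 0.594 ± 0.0200 and 0.739 ± 0.0261, and the ImmAM range (0.710 to 0.761) overlapped that of control mAMs (0.575 to 0.723). The overlap came from control mAM replicate 1 alone, at 0.723. All ImmAMs lay above every RXR-deficient mAM library, replicate 4 (0.617) included. Psmb10 to Psmb7 was 0.795 ± 0.0712, 0.640 ± 0.0878 and 0.898 ± 0.0572, lowest in replicates 1 to 3 of the RXR-deficient mAMs, with replicate 4 at 0.791, and the ImmAM range (0.856 to 0.963) again overlapped that of control mAMs (0.757 to 0.901). That overlap came from control mAM replicate 4 alone, at 0.901. Here too all ImmAMs lay above every RXR-deficient mAM library, replicate 4 included. The 3 immunoproteasome subunits made up 35.2% ± 0.893 of the summed level of the 6 catalytic subunits in control mAMs, 32.8% ± 1.09 in RXR-deficient mAMs, with replicate 4 at 34.9%, and 35.7% ± 0.424 in ImmAMs.

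**Figure D3:**
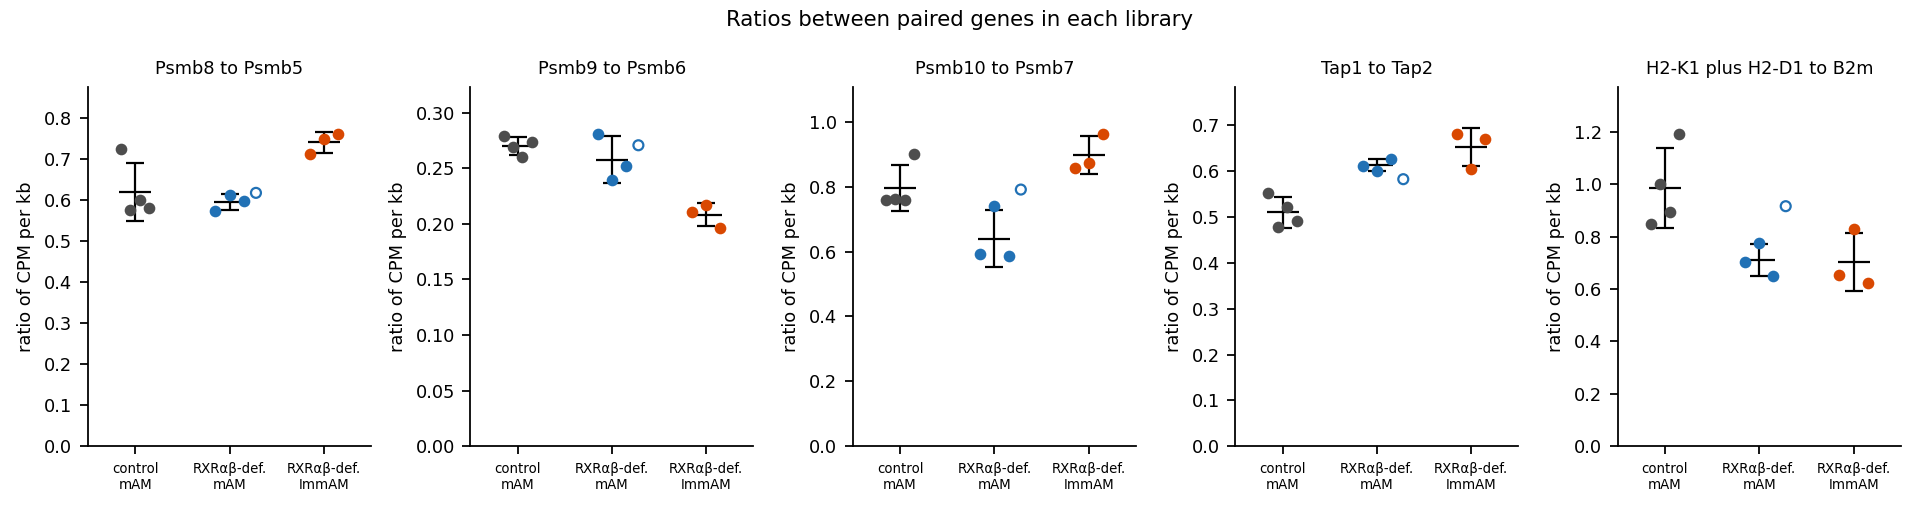
Ratio of CPM per kb (y axis, from 0) between paired genes in every library, by group (x axis). Filled points with mean and SD are the libraries in the tests, and the open circle is RXR-deficient mAM replicate 4. Psmb9 to Psmb6 is lowest in ImmAMs, and Tap1 to Tap2 is lowest in control mAMs.

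The partners of the transporter and of the class I molecule also shifted against each other. Tap1 to Tap2, per kb, ran from 0.477 to 0.552 in control mAMs, from 0.600 to 0.627 in replicates 1 to 3 of the RXR-deficient mAMs and from 0.605 to 0.681 in ImmAMs. Replicate 4 had 0.582, so every RXR-deficient library was above every control library. The summed heavy chains H2-K1 and H2-D1 to B2m were at 0.984 ± 0.153 in control mAMs (SD, n = 4), 0.710 ± 0.0623 in RXR-deficient mAMs (SD, n = 3) and 0.703 ± 0.111 in ImmAMs (SD, n = 3). Replicates 1 to 3 and the ImmAMs (highest 0.830) stayed below the lowest control library (0.849), and replicate 4 at 0.917 did not. These ratios are descriptions and were not tested.

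The rest of the proteasome was described from fixed lists. In RXR-deficient mAMs against control mAMs, 2 of 18 genes of the 19S regulatory particle were called lower, Psmd3 (-0.37) and Adrm1 (-0.43), and none of the 11 other 20S subunits or of the 11 activator and assembly genes (3 and 1 at an unadjusted p under 0.05 in limma). These 2 are 11.1% of the 19S list, beside 2.59% of all genes tested called lower. At an unadjusted p under 0.05 were 23.6% of all genes tested. With replicate 4 included, Psmd3 (adjusted p = 0.109) and Adrm1 (adjusted p = 0.361) were not called either. Between ImmAMs and control mAMs, 15 of 18 regulatory particle genes, 10 of 11 other 20S subunits and 5 of 11 activator and assembly genes were called lower and none higher, beside the background of 25.3% lower. The medians were -0.34, -0.36 and -0.25. Psme1 (-0.36, adjusted p = 0.00151) and Psme2 (-0.43, adjusted p = 0.00105), the interferon-inducible PA28 activator, were among them. Against control mAMs, the fall of Psmb8, Psmb9 and Psmb10 in ImmAMs thus stood beside a fall of most proteasome genes. In ImmAMs against RXR-deficient mAMs, 8 of 18, 5 of 11 and 4 of 11 genes of the same lists were called lower. None was called higher, and 20.2% of all genes tested were called lower. The medians were -0.22, -0.25 and -0.15. Psmb8 (-0.02), Psmb9 (-0.23) and Psmb10 (0.10) were not called in that comparison.

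Of the 16 genes for peptide trimming and loading, none was called by limma in RXR-deficient mAMs, beside 4.84% of all genes tested. In this list 5 were at an unadjusted p under 0.05 (median log2 fold change 0.06), beside 23.6% of all genes tested. In ImmAMs against control mAMs 9 were called lower and none higher (median -0.25), 56.2% of the list. Of all genes tested, 48.1% were called in that comparison, 25.3% lower. Among the 9 were the aminopeptidases Lap3 (-0.77) and Erap1 (-0.34), the chaperone Calr (-0.29) and the tapasin relative Tapbpl (-0.42). Against RXR-deficient mAMs 8 were lower (50%), beside 37.9% of all genes tested called, 20.2% lower.

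The other class I and class I-like genes did not follow 1 direction. In RXR-deficient mAMs, 3 of the 15 tested (20%), of 25 listed, were called lower and none higher, beside 2.59% of all genes tested called lower. These were H2-Q6, with a log2 fold change of -1.19 (adjusted p = 0.00344), H2-Q4 (-0.53, adjusted p = 0.0428) and Fcgrt (-0.32, adjusted p = 0.0404), the neonatal Fc receptor. With replicate 4 included none of the 15 was called by limma (5 at an unadjusted p under 0.05), and for Fcgrt that library, at 715 CPM, lay above every control library (594 to 685 CPM). H2-Q6 was at 25.6, 17.4, 16.6 and 16.3 CPM in control mAMs, at 7.82, 9.28 and 7.56 CPM in RXR-deficient mAMs with replicate 4 at 22.4 CPM, and at 7.30, 9.16 and 8.64 CPM in ImmAMs. It was the lowest without overlap in both tested RXR-deficient groups, though 25.3% of its 60-base windows are shared with other genes, H2-Q7 most often. Against control mAMs, 5 were called higher in ImmAMs, Hfe (1.27), H2-T24 (0.90), Cd1d1 (0.78), H2-M3 (0.38) and H2-T23 (0.36), and 2 lower, Fcgrt (-2.04) and H2-Q6 (-1.16). That is 46.7% of the list, near the 48.1% called among all genes tested.

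Of the 23 class I transcription factor genes tested, none was called by limma in RXR-deficient mAMs, beside 4.84% of all genes tested. At an unadjusted p under 0.05 there were 7 of the 23, beside 23.6% of all genes tested. In ImmAMs against control mAMs 4 were higher and 6 lower, 43.5% of the list and so no more than the 48.1% called among all genes tested. Irf1, an interferon-induced activator of class I promoters, was at -0.40 (adjusted p = 0.00322). Nfyc, a subunit of the factor that binds the Y box, was at -0.70 (adjusted p = 3.85e-06). Irf8 (0.41), Irf9 (0.49), Atf1 (0.51) and Creb1 (0.29) were higher. Rxra, Rxrb and Rara were also among the lower genes.

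Of the 8 genes on the list of interferon receptors, kinases and their inhibitors, Ifngr1 and Socs3 were called higher in RXR-deficient mAMs and none lower. That is 25% of the list, beside 2.25% of all genes tested called higher. Ifngr1, which binds interferon-γ, was at 150.0, 171, 136 and 148 CPM in control mAMs and at 199, 204 and 209 CPM in RXR-deficient mAMs. Replicate 4 had 198 CPM, so on this gene it sat with its own genotype. In ImmAMs Ifngr1 was at 423, 419 and 442 CPM, above all mAMs. Its log2 fold change was 0.43 in RXR-deficient mAMs (adjusted p = 0.00842) and 1.50 in ImmAMs (adjusted p = 4.55e-09). The feedback inhibitor Socs3 rose by 1.07 (adjusted p = 0.0187) and 2.91 (adjusted p = 1.94e-07). Both were also called in RXR-deficient mAMs with replicate 4 included (adjusted p = 0.00512 and 0.0227). The other interferon receptor genes were not called in RXR-deficient mAMs, with log2 fold changes of 0.13 for Ifngr2, 0.06 for Ifnar1 and -0.01 for Ifnar2. In ImmAMs against control mAMs 6 of 8 genes (75%) were higher and none lower, beside 22.8% of all genes tested called higher.

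**Figure D4:**
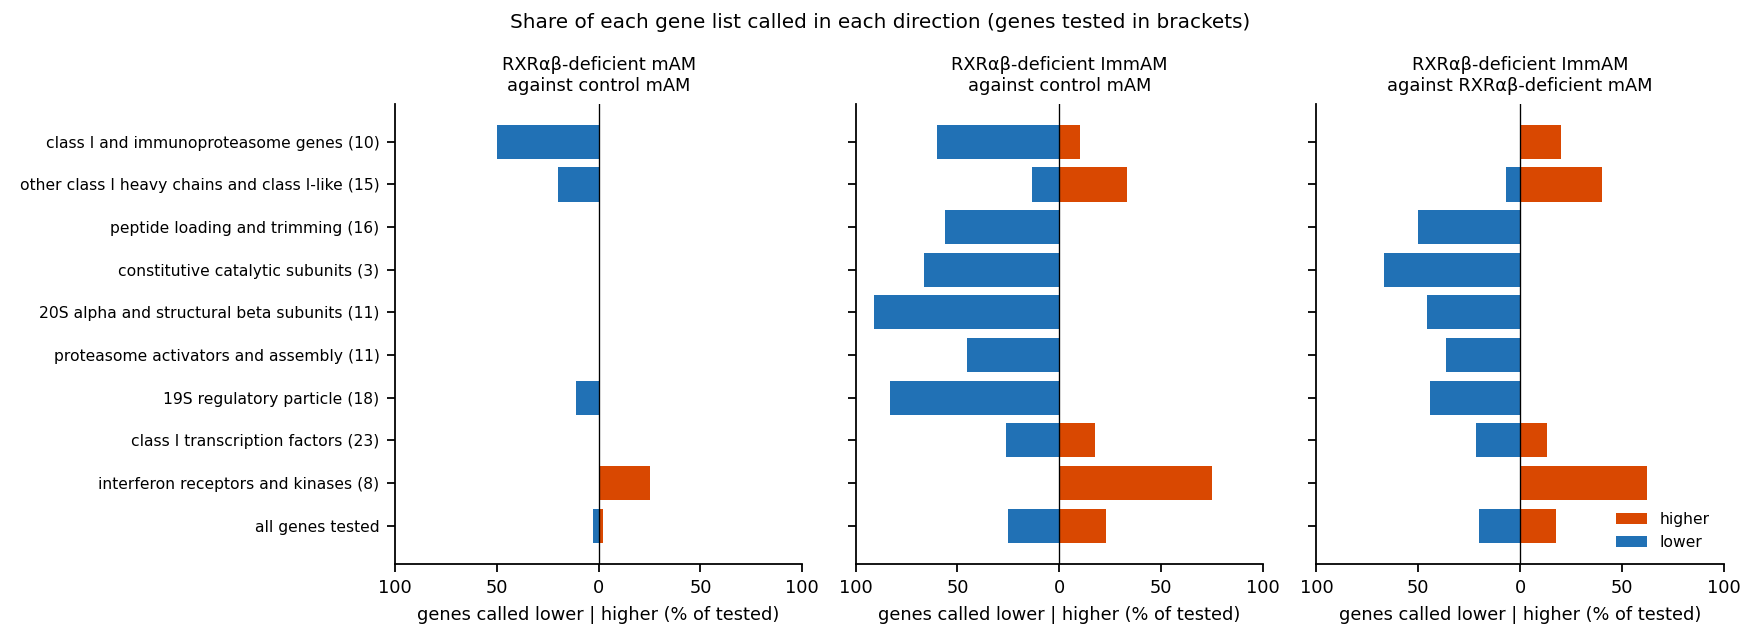
Share of each gene list called in limma (x axis, percent of the genes tested, lower to the left and higher to the right) in the 3 comparisons, with all genes tested in the bottom row. For ImmAMs against control mAMs, the 20S and 19S lists reach 10 of 11 and 15 of 18 genes lower, and the interferon receptor list has 6 of 8 genes higher.

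Position was described because 6 of the 10 genes flank Rxrb, a gene floxed in all the mice. Measured from the Rxrb start (chromosome 17, 34031812), the annotated start coordinates lie at -115.9 kb for Tapbp, -35.8 kb for H2-K1, 150.2 kb for Psmb9, 155.7 kb for Tap1, 165.9 kb for Psmb8 and 171.7 kb for Tap2. Of the 18 other genes tested over the same stretch, Gm15821 among them, 2 were called lower in RXR-deficient mAMs, Pfdn6 (-0.48) and Wdr46 (-0.38), and 1 higher, H2-DMb2 (0.50), with a median of -0.10, and none of these 3 was called with replicate 4 included (adjusted p of 0.305, 0.230 and 0.0939). The 3 called in RXR-deficient mAMs are 16.7% of the 18, beside 4.84% of all genes tested. In ImmAMs against control mAMs 4 were lower and 3 higher, 38.9% of the 18 and so no more than the 48.1% called among all genes tested. H2-Ke6, Gm20427 and Slc39a7, the nearest to the left of Rxrb, and Col11a2, the nearest to the right, were not called against control mAMs in either group. Psmb10 on chromosome 8 and H2-D1, further along chromosome 17, were also called lower against control mAMs. In RXR-deficient mAMs neither was called by limma with replicate 4 included (adjusted p of 0.282 and 0.266). An effect of position was not tested.

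**Figure D5:**
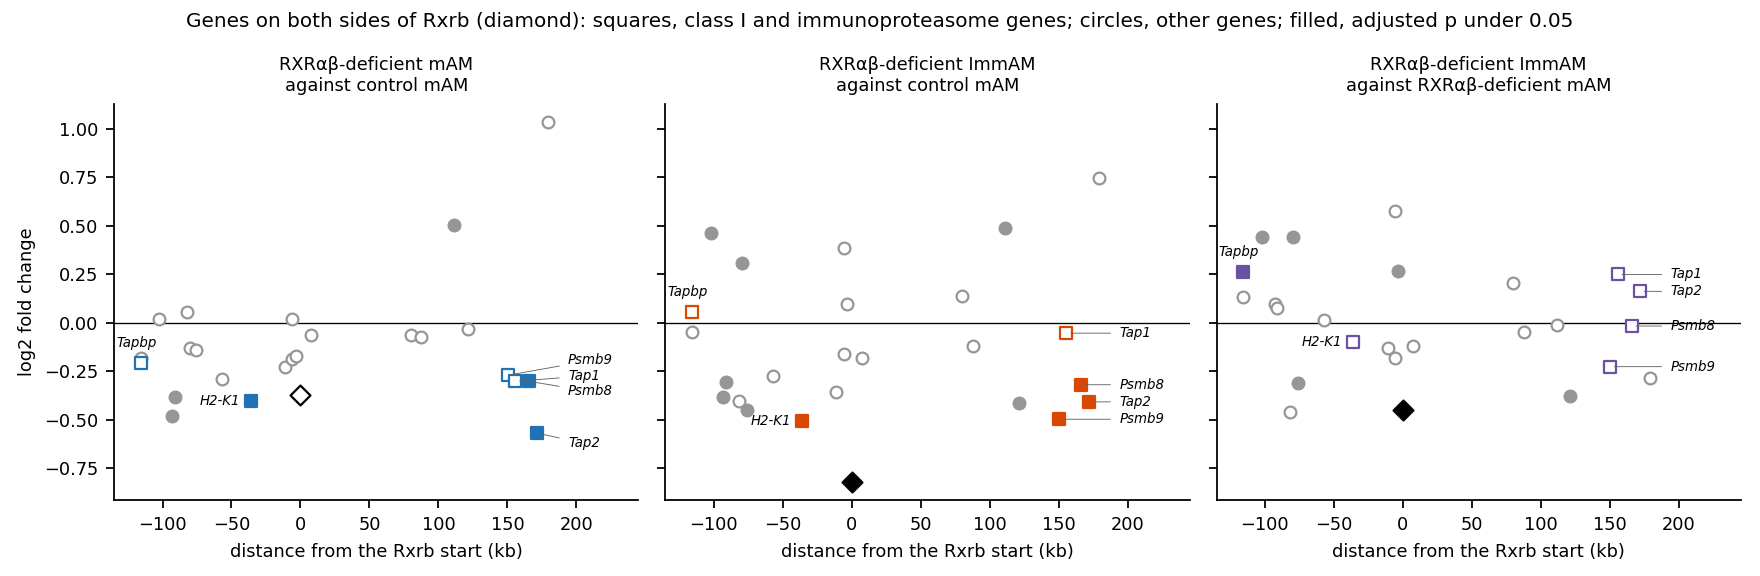
Log2 fold change (y axis) of the genes around Rxrb by the distance of their start from the Rxrb start in kb (x axis), 1 panel per comparison. Squares are class I and immunoproteasome genes, circles are other genes, the diamond is Rxrb, and filled symbols have an adjusted p under 0.05. Genes between H2-K1 and Psmb9 lie on both sides of 0 in each panel.

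The genes whose levels most resembled those of Nlrc5, H2-K1 and Psmb8 were found by Pearson's r of log2 CPM over all 11 libraries, among the 9947 genes whose mean reached 5 CPM. The r covers differences between 3 groups as well as between libraries, so it is a description. For Nlrc5 they included the RNA ligase gene Rtcb (r = 0.975) and Mpst (0.973). Mpst, a mercaptopyruvate sulfurtransferase, was at 9.02 ± 0.388 CPM in control mAMs (SD, n = 4) and 16.0 ± 2.84 CPM in ImmAMs (SD, n = 3). For H2-K1 they were the translation initiation factor gene Eif4g1 (0.982), Chpf (0.964) and Arfgap2 (0.961). Eif4g1 was at 439 ± 8.05 CPM in control mAMs (SD, n = 4), 399.7 ± 11.7 in RXR-deficient mAMs (SD, n = 3) and 440.1 CPM in replicate 4. For Psmb8 they were the 20S subunit gene Psmb4 (0.969), Prdx5 (0.962) and Rnh1 (0.957), which are no class I genes apart from the shared proteasome, and Psmb4 was likewise highest in replicate 4, at 113 CPM.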

How the data were processed

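RNA-seq of the 11 libraries was done by the study with a directional kit and 60-base single-end reads. Per the methods and the submitters' processing notes, the authors trimmed reads with Cutadapt, quantified them with RSEM 1.3.1 on the GRCm38 transcriptome, scaled by TMM and dropped genes that did not reach 1 CPM in 3 samples or more. The strand setting of the counting is not given in the sources used here, and the sources differ on the sequencer and on lavage or digested lung. The deposited values are CPM per library. They return whole reads (within 0.01) for 100% of the values, 16659960 to 37873532 per library. No pair of libraries agreed within sampling noise (mean chi-square per gene of at least 8.49). The labels do not tie libraries to single mice, so p-values measure the spread between these libraries. Each of the 11 libraries held both Xist, expressed in female cells (55.5 to 539 CPM), and the Y-linked Ddx3y (39.7 to 107 CPM). RNA of both sexes was thus in each library, in shares that differed, with Xist from 55.5 to 458 CPM within the RXR-deficient mAMs. This differs from a reading of the legends as 1 mouse per library, and the reason was not tested.

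Log2 CPM of 10 libraries (the published n of 4, 3 and 3) were fitted in limma 3.58.1 under R 4.3.3 with a mean for each of the 3 groups (two-sided moderated tests, variance trend, Benjamini-Hochberg adjustment over 12889 genes). Alternatives included edgeR 4.0.16, DESeq2 1.42.0 and limma-voom on the recovered reads. In simulated data for RXR-deficient against control mAMs (12598 genes), limma recovered 95% of genes changed 1.5-fold and 100% of those changed 2-fold, and 3.94% of its calls were false. The simulation gave every gene the same dispersion and held no library that stood apart. It had no change below 1.5-fold, so its rates do not carry over to the smaller changes called here in RXR-deficient mAMs. GENCODE vM21 gave positions and transcript lengths for 12919 of the 12932 genes. Genes named are the 10 chosen genes, genes called on the fixed lists with Psmb5, Psmb6, Psmb7, Psme1 and Psme2, genes between Tapbp and Tap2 around Rxrb, and the 3 genes most similar to Nlrc5, H2-K1 and Psmb8, except that some genes these rules select are not reported here. Rxra and Rxrb with the gate markers Siglecf and Itgam and the sex-linked Xist and Ddx3y are given as checks. Counts of the other lists with replicate 4 included were added after the data were seen. The 10 genes and the lists were chosen with earlier results of these data known.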

Additional observations from a re-analysis of the deposited data

How the results depend on the processing

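The count of genes called in RXR-deficient mAMs against control mAMs, 5 in the report, was the value that moved most. In limma it was 0 with all 11 libraries (4 at an unadjusted p under 0.05), 0 with eBayes without a variance trend (8) and 2 with only the 2 groups compared, and edgeR gave 5 and DESeq2 7. Leaving out 1 library gave 2 to 6. All genes called in this comparison (624) numbered 337 with all 11 libraries, 195 with only the 2 groups, 122 without the trend, 1352 in DESeq2 and 163 to 861 with 1 library left out. In ImmAMs the count was 6 or 7 against control mAMs and 1 to 3 against RXR-deficient mAMs under all settings, and leaving out 1 library gave 6 to 7 and 2 to 3. No pairing by replicate number was seen among the libraries of the main fit (correlations of -0.129 to 0.059 between same-numbered libraries). Such correlations cannot exclude a shared mouse or sort. With the replicate number as a block, 2 genes were called in RXR-deficient mAMs (174 of all genes) and 1 in ImmAMs against RXR-deficient mAMs. With replicate 4 in, its correlation with control mAM replicate 4 was 0.246, so all 11 libraries with the block were fitted after the data were seen, and 0 genes were called in RXR-deficient mAMs (4 at an unadjusted p under 0.05, 320 of all genes). No call reversed. Of values not called, those of ImmAMs against RXR-deficient mAMs changed sign for Psmb10 with all 11 libraries (-0.0253), with the block (-0.0007) and with both (-0.0894), and for Psmb8 after quantile normalization (0.0136) and with Xist as a covariate (0.0032). With 1 library left out, Psmb8 ran from -0.0648 to 0.0184 and B2m from -0.1463 to 0.0051 in that comparison, and B2m from -0.0628 to 0.1035 against control mAMs. The cause of these differences was not tested. Groups of 3 and 4 libraries limit how small a change can be called.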
